A study of Mus musculus with 6 samples.

Results

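The genes described here encode 9 neuropeptide precursors of sensory ganglia (Tac1, Calcb, Adcyap1, Gal, Npy, Vip, Cartpt, Penk and Nmb) and the granin secretogranin II (Scg2). They were taken by name, as the probe sets whose annotation lists that gene symbol and no other, which gave 10 genes and 12 probe sets out of 18193 genes and 45037 probe sets on the array. Where a gene had several probe sets, its values are those of the brightest, by mean log2 intensity over all arrays, with the dimmer ones of Tac1 and Adcyap1 beside them. RNA of dorsal root ganglia (DRGs), taken at cervical, thoracic and lumbar levels of mice at P60, was measured, with 3 Meis1cko mice and 3 control mice and 1 array per mouse. Meis1cko mice carry a floxed Meis1 allele, made in J1 embryonic stem cells and crossed with C57BL/6 mice, from which Nav1.8-Cre deletes the exon coding for part of the homeodomain. This transgene drives Cre from a promoter fragment of the nociceptor sodium channel Nav1.8. Ganglion cells without Cre, such as glia, keep the Meis1 gene undeleted. In the study, nearly all neurons with Meis1 RNA at P60 were large and myelinated, and Meis1 was not detectable in nociceptors at that age. Littermates homozygous for the floxed allele served as controls in the behavioural tests of the study, while the alleles of the control mice on the arrays and the sex of each mouse are not given in the sources used here.

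Neuropeptides are made as long precursors, cut by convertases inside dense-core vesicles and often amidated at the C-terminus before release. In the DRG, substance P (from Tac1), CGRP and PACAP (from Adcyap1) mark peptidergic nociceptors, which release them in the skin and the spinal cord. Galanin, NPY and VIP are best known there as peptides that rise after axon injury. Granins such as secretogranin II help to form the vesicles and are themselves cut into peptides.

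The sensory neuron markers Prph and Avil were bright on every array, with intensities of at least 12897 and 7135. Intensities are the authors' normalized values on a linear scale and have no physical unit. In whole ganglia, fewer cells of a type and less RNA per cell cannot be told apart. The replicate 3 array of each genotype stood apart from the other 4 arrays, with a gap between the 3′ and 5′ ends of Actb, read by control probe sets, of 0.431 log2 units on average, against 1.38 on the others. This gap averaged 1.14 in Meis1cko DRGs and 0.984 in control DRGs. Meis1 itself had intensities of 66.0, 72.1 and 64.2 in Meis1cko DRGs and of 110, 144 and 90.2 in control DRGs, without overlap. This gave -0.74 ± 0.18 (log2 fold change ± SE, limma adjusted p = 1.0, and 0.00434 before adjustment). Whether its probe set lies in the deleted exon was not examined. All fold changes below are Meis1cko over control.

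Of the 10 members, 1 had groups that did not overlap, Cartpt, against 3.82% of all genes lower in Meis1cko and 3.12% higher. Cartpt encodes the precursor of the CART (cocaine- and amphetamine-regulated transcript) peptides. Its intensities were 1954, 1960.4 and 1660.3 in Meis1cko DRGs, against 3586, 2661 and 2609.8 in control DRGs. Every Meis1cko mouse lay below every control mouse, and control replicate 1 stood highest. The mean was 1858 ± 172 in Meis1cko and 2952 ± 549 in control DRGs (SD, n = 3 mice each). The log2 fold change was -0.66 (SE 0.16, 95% interval -1.04 to -0.28), or 0.488 to 0.826 on the linear scale at the ends of that interval.

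This difference did not pass the adjusted threshold. In limma the p of Cartpt was 0.00446 before and 1.0 after adjustment over all 45037 probe sets. The exact two-sided permutation test gave 0.1, the smallest p that 3 mice against 3 allow. Same-numbered arrays gave log2 differences of -0.88, -0.44 and -0.65, and with the replicate numbers as pairs the adjusted p was 0.187 in limma, within 0.0996 to 1.0 over the alternatives. The fold change without control replicate 1 was -0.51, and without both replicate 3 arrays it was -0.66. Cartpt also lay past the thresholds of the study's methods, a fold over 1.5 with an unadjusted p under 0.05, both in limma and in the methods' t-test (n = 3 mice per genotype). Of the brightest probe sets of all genes, 0.781% lay past those thresholds in limma. By its p, Cartpt ranked 79 among the 18193 genes.

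For the members, the sequence around the transcription start was read in the RefSeq promoter table (GRCm38.p6). The windows held 250 bases before the start and 50 from the start on. The RefSeq table lists 8 of the 10 members and not Calcb or Penk. The cAMP response element TGACGTCA, which reads the same on both strands, was found in 2 of these 8, Cartpt and Scg2, and in 1.79% of all 32851 promoters. Only these exact letters were searched, so shorter or variant forms of the element in the other windows were not counted. The Meis core TGACAG was searched on both strands, since the deleted gene codes for a Meis transcription factor. It was found in 1 of these 8, Adcyap1, and in 19.2% of all promoters. No window held both motifs, and that of Cartpt held 0 Meis cores. Any part of the response element in the difference of Cartpt was not tested. A match of letters is a description and not a binding site.

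The whole Cartpt window (chr13:99900634-99900933, minus strand) is shown because Cartpt was the member that separated the genotypes, with the response element in capitals, starting 112 bases before the transcription start.
Cartpt: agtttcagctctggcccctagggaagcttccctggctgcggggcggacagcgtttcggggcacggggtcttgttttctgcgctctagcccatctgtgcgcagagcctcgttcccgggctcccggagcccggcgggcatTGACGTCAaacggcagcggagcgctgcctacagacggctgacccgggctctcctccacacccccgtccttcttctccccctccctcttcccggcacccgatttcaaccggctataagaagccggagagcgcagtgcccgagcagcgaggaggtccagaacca
The stretch of Scg2 around the same element (chr1:79440067-79440114, minus strand) is shown for comparison, since Scg2 holds the element 68 bases before its start and had a log2 fold change of -0.05 against -0.66 for Cartpt.
Scg2: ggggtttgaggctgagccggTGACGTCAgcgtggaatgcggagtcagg
The Meis core of Adcyap1 lies 29 bases before the later of its 2 starts in the table (chr17:93199119-93199164, plus strand), in capitals and as its reverse complement.
Adcyap1: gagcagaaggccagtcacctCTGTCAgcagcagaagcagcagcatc

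**Figure D1:**
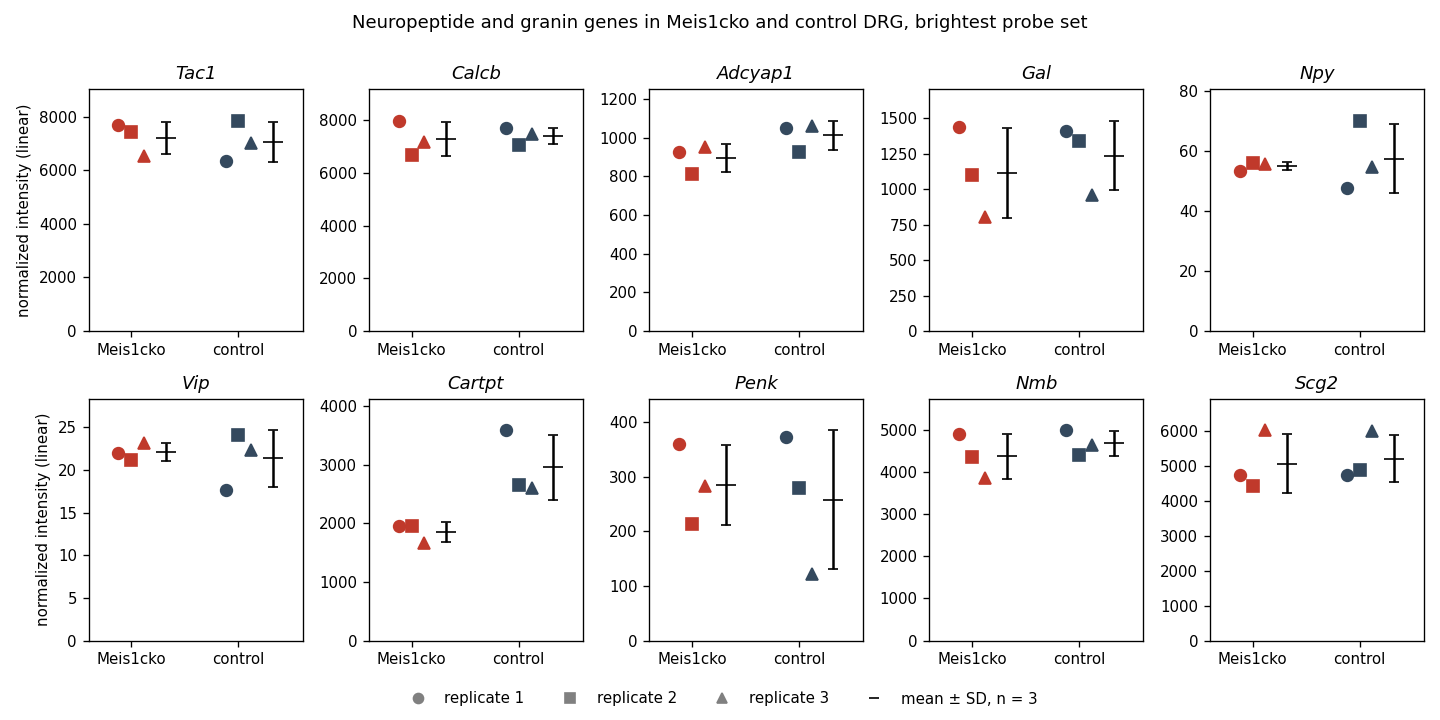
Normalized intensity (linear scale, each axis from 0) of the brightest probe set of the 10 genes in each Meis1cko and control mouse, with symbols by replicate number and the mean ± SD of 3 mice as bars. The genotypes are apart for Cartpt, where the Meis1cko mice lie at 1660.3 to 1960.4 and the control mice at 2609.8 to 3586, and overlap for the other 9 genes.

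The peptides of peptidergic nociceptors lay close together in both genotypes. Tac1, the precursor of substance P and neurokinin A, had intensities of 7679, 7412 and 6533 in Meis1cko DRGs and of 6353, 7843 and 6994 in control DRGs. The genotypes overlapped, and control replicate 1 was the lowest array. Its log2 fold change was 0.03 (SE 0.13, 95% interval -0.28 to 0.34), which on the linear scale runs from 0.823 to 1.27. The dimmer Tac1 probe set, at 8.88 to 12.3 in Meis1cko and 8.65 to 10.7 in control DRGs, was under the 25th percentile on all 6 arrays, so its log2 fold change of 0.10 is not exact.

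Calcb encodes β-CGRP, a vasodilator peptide close in sequence to the product of Calca, which was not analysed here. Its intensities were 7988, 6704 and 7179 in Meis1cko DRGs and 7693, 7071 and 7467 in control DRGs. The control mice all lay within the range of the Meis1cko mice. Calcb had a log2 fold change of -0.03 (SE 0.12, 95% interval -0.31 to 0.26), or 0.807 to 1.19 on the linear scale.

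Adcyap1, the gene of the peptide PACAP, had intensities of 925, 814 and 950.3 in Meis1cko DRGs and of 1049.8, 926 and 1062 in control DRGs. The genotypes overlapped, since Meis1cko replicate 3 lay above control replicate 2. Within same-numbered pairs the log2 differences were -0.18, -0.19 and -0.16, lower in Meis1cko in 3 of 3. In limma the log2 fold change was -0.18 (SE 0.13, 95% interval -0.47 to 0.12), and the exact two-sided permutation p was 0.2. With the pairs the adjusted p was 0.790 in limma, within 0.273 to 1.0 over the alternatives. The dimmer probe set gave -0.11 (SE 0.21) and did not have this order, with pair differences of 0.17, -0.14 and -0.37.

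Neuromedin B (Nmb), a bombesin-like peptide that acts in itch signalling, had intensities of 4919, 4369 and 3861 in Meis1cko DRGs and of 5000.5, 4409 and 4654 in control DRGs. The genotypes overlapped, and the Meis1cko mouse was the lower of each pair, with log2 differences of -0.02, -0.01 and -0.27. Its log2 fold change was -0.10 (SE 0.13, 95% interval -0.42 to 0.21). In all, 3 of the 10 members (Cartpt, Adcyap1 and Nmb) were lower in Meis1cko in each of the 3 pairs and 0 were higher in each, while 17.2% of all genes were lower in each pair by their brightest probe set.

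The peptides known for their rise after axon injury overlapped between the genotypes. Galanin (Gal), an inhibitory peptide of sensory neurons, had intensities of 1437, 1097 and 806 in Meis1cko DRGs and of 1413, 1343 and 956 in control DRGs. The replicate 3 array was the lowest of its genotype in both, at -0.64 in Meis1cko and -0.53 in control DRGs on the log2 scale relative to the mean of the other 2 arrays. The log2 fold change between genotypes was -0.17 (SE 0.24, 95% interval -0.74 to 0.40). It was 0.04 without Meis1cko replicate 3, -0.35 without control replicate 3 and -0.13 without both replicate 3 arrays.

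Npy was dim, below the median intensity of all probe sets on 5 of 6 arrays. Its intensities were 53.4, 55.9 and 55.6 in Meis1cko DRGs and 47.6, 70.0 and 54.5 in control DRGs. The Meis1cko mice lay within the range of the control mice, whose lowest and highest values were replicates 1 and 2. Npy had a log2 fold change of -0.04 (SE 0.16, 95% interval -0.42 to 0.33).

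Vip was dimmer, below the array's median on all 6 arrays and below its 25th percentile on 2 of them, so its fold change is not exact. It had 22.0, 21.2 and 23.2 in Meis1cko DRGs and 17.7, 24.1 and 22.3 in control DRGs, a log2 fold change of 0.06 (SE 0.15, 95% interval -0.28 to 0.41). No rise of these peptides in Meis1cko DRGs was detectable at this precision, and the upper ends of the intervals were 1.32-fold for Gal, 1.26-fold for Npy and 1.32-fold for Vip.

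Penk, the precursor of the opioid enkephalins, had the widest spread of the 10. Its intensities were 360.5, 213 and 284 in Meis1cko DRGs and 373, 280 and 122 in control DRGs. The lowest value was that of control replicate 3, at -1.41 from the mean of the other 2 control arrays on the log2 scale, while Meis1cko replicate 3 was at 0.03 from its own. Over all arrays the log2 fold change was 0.26 (SE 0.41, 95% interval -0.70 to 1.21). Without control replicate 1 it was 0.60 and without Meis1cko replicate 3 it was 0.25. Without control replicate 3 it was -0.21, so that its direction rests on that array.

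Scg2, the granin, had intensities of 4738, 4425 and 6019.5 in Meis1cko DRGs and of 4748.5, 4888 and 5992 in control DRGs. The replicate 3 array was the highest of its genotype in both, by 0.39 in Meis1cko and 0.31 in control DRGs on the log2 scale. The log2 fold change between genotypes was -0.05 (SE 0.16, 95% interval -0.43 to 0.34).

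**Figure D2:**
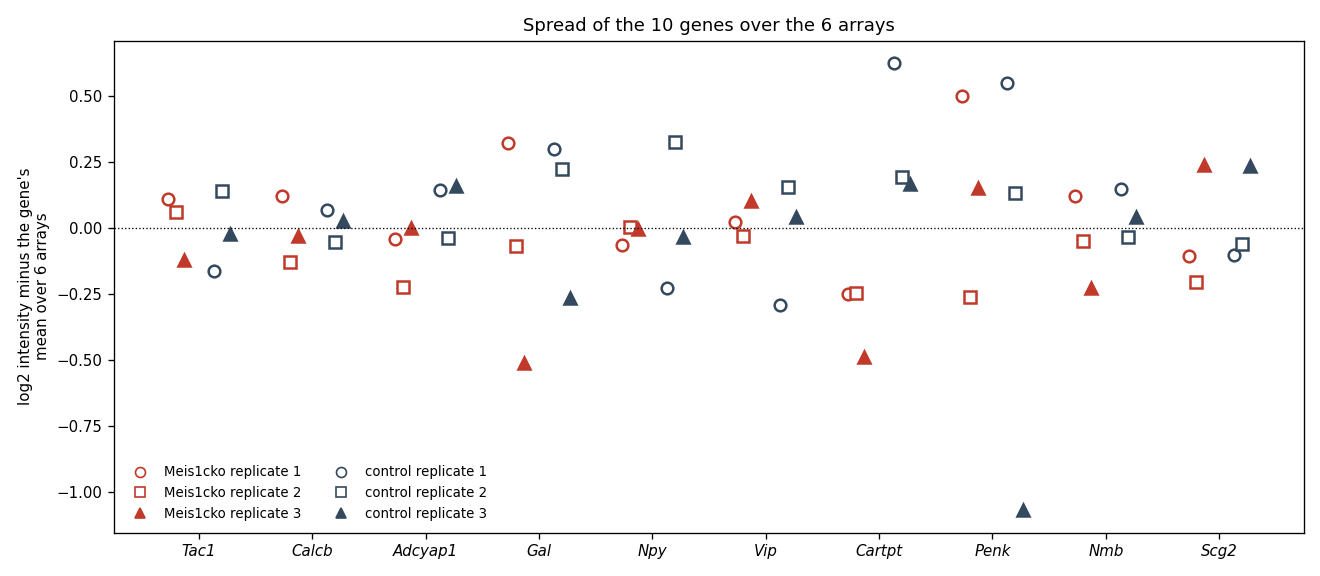
Log2 intensity of each array minus the gene's mean over the 6 arrays, for the brightest probe sets, with colour for genotype, symbol for replicate number and filled triangles for the replicate 3 arrays. Gal is low and Scg2 high on both replicate 3 arrays, Penk is lowest on control replicate 3, and for Cartpt all Meis1cko arrays lie below all control arrays.

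At the adjusted threshold of 0.05 in limma, 0 of the 10 genes passed in either direction, against 0.0155% of all probe sets. With the replicate numbers as pairs, 0 passed as well, against 0.0822% of all probe sets. At an unadjusted p under 0.05, 1 of the 12 probe sets passed, that of Cartpt, against 2.32% of all probe sets. By the brightest probe set of each gene, 1 member was lower at that p and 0 were higher, while 1.37% of all genes were lower and 1.19% higher. Groups that did not overlap were found for 1 member, lower in Meis1cko, against 3.82% of all genes lower and 3.12% higher in the same sense.

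The median log2 fold change of the members was -0.045 and that of all genes was -0.014. Of the 10, 7 had a log2 fold change below 0 and 3 above 0, and 54.2% of all genes lay below 0. Apart from Cartpt, the members lay between -0.18 and 0.26. The 95% intervals were narrowest for Calcb, Adcyap1, Tac1 and Nmb and widest for Penk. A p that misses the threshold does not show that a gene was equal in both genotypes, and the intervals give the differences that the 6 arrays leave possible.

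**Figure D3:**
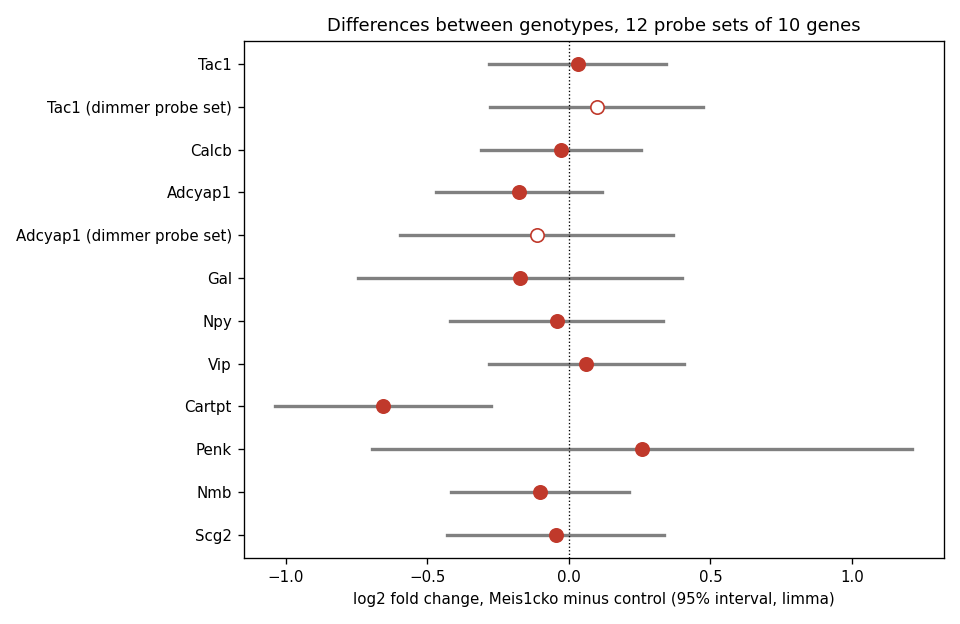
Log2 fold change (Meis1cko minus control) with the 95% interval from limma for the 12 probe sets of the 10 genes, filled for the brightest probe set of a gene and open for dimmer ones. The interval of Cartpt (-1.04 to -0.28) is the one that does not reach 0, and that of Penk (-0.70 to 1.21) is the widest.

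Among the genes that process these precursors, Pam was lower and Scg5 higher at an unadjusted p under 0.05 and neither passed the adjusted threshold. Pam encodes the enzyme that amidates peptides such as substance P and CGRP. It had intensities of 1056, 979 and 726 in Meis1cko DRGs, against 1956, 1509 and 1414 in control DRGs. Every Meis1cko mouse lay below every control mouse (exact two-sided permutation p = 0.1). In limma its log2 fold change was -0.82 (SE 0.19, 95% interval -1.28 to -0.37), with an adjusted p of 1.0 and 0.00326 before adjustment. With the pairs the adjusted p was 0.0817, within 0.0614 to 1.0 over the alternatives.

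Scg5, which encodes the chaperone 7B2 of a prohormone convertase, had intensities of 4550, 1484 and 3946 in Meis1cko DRGs and of 1461, 1413 and 1723 in control DRGs. Meis1cko replicates 1 and 3 were high and replicate 2 lay within the control range. On the log2 scale Scg5 differed by 0.97 (SE 0.40). Its adjusted p was 1.0 in limma and 0.0426 before adjustment. The value was 1.47 without Meis1cko replicate 2, 0.66 without Meis1cko replicate 1 and 0.16 with array weights. The glutaminyl cyclase gene Qpct had -0.40 and the vesicle protein gene Ptprn2 -0.14. Of 16 genes of peptide processing and dense-core granules, 15 were measured, with a median of -0.01. At the adjusted threshold 0 passed.

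Other sensory peptides showed no separation of the genotypes. Of 15 genes, 14 were measured and 0 passed at the adjusted threshold or at an unadjusted p under 0.05 in limma, with a median log2 fold change of 0.08. Those with the smallest p were cholecystokinin (Cck) at -0.23, urocortin (Ucn) at 0.27, Crh at 0.61 and the itch peptide gene Nppb at -0.22. Cck and Crh lay below the 25th percentile on 3 and 5 of the 6 arrays, so their fold changes are not exact.

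Among the receptors of these peptides, 17 of 18 genes were measured and 0 passed the adjusted threshold, with a median log2 fold change of -0.10. The NPY receptor gene Npy1r had intensities of 296, 157 and 201 in Meis1cko DRGs and of 172, 133 and 133 in control DRGs, with overlap, and a log2 fold change of 0.54 (SE 0.24), while its dimmer probe set had -0.16. Npy5r had 57.9, 63.9 and 65.6 in Meis1cko DRGs against 54.5, 55.9 and 46.3 in control DRGs, without overlap, at 0.26 (SE 0.13). The galanin receptor gene Galr1 had -0.22 (SE 0.13), also without overlap. Its other 2 probe sets had -0.34 with overlap and -1.22 without overlap, and all lay below the median of every array. The probe set at -1.22 had an unadjusted p of 0.00490 in limma and did not pass the adjusted threshold. It lay under the 25th percentile on 2 arrays. Galr1 is among the genes the study chose on these arrays and is not independent evidence of its direction. The opioid receptor gene Oprm1 had 0.28 (SE 0.17), and its dimmer probe sets 0.15, 0.07 and 0.01.

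Markers of the cells that make the peptides, and of other cells in the tissue, stand beside these values. Of the 7 peptidergic nociceptor markers, 5 were measured, with a median log2 fold change of -0.23. By the brightest probe set 4 lay below 0, against 54.2% of all genes. At an unadjusted p under 0.05 in limma, 0 of the 5 passed. The log2 fold changes were -0.29 for Tafa1 and -0.23 for the GDNF family receptor gene Gfra3. Smr2 had -0.31 and the capsaicin receptor gene Trpv1 -0.22. Kit had 0.08, and its dimmer probe set -0.12. For Tafa1 the genotypes did not overlap, against 3.82% of all genes lower in Meis1cko without overlap. The dimmer probe sets of Smr2 had -0.49 with overlap and -0.61 without overlap, the second with an adjusted p of 1.0 in limma and 0.0173 before adjustment. The summed intensity of these 5 was 3584 to 4799 in Meis1cko and 4439.6 to 4800.1 in control DRGs. Scn10a, the sodium channel gene whose promoter drives the Cre, had 1213, 949.7 and 993 in Meis1cko DRGs against 752, 696 and 804 in control DRGs, at 0.48 (SE 0.14). Of the 6 sensory neuron markers measured it was the one with an unadjusted p under 0.05, with a list median of 0.03. The transcription factor gene Pou4f1 had 911, 937 and 264 in Meis1cko DRGs and 1056, 1184 and 729 in control DRGs, with overlap, at -0.67 (SE 0.48), while its dimmer probe set had 0.30 (SE 0.16). The summed intensity of the 6 sensory neuron markers was 38980.2 to 41305 in Meis1cko and 38368 to 38949.5 in control DRGs.

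All 6 connective tissue markers had log2 fold changes below 0 by their brightest probe sets, with a median of -0.56. Of all genes, 54.2% lay below 0. Pdgfra had -0.15 (SE 0.31), and its dimmer probe sets -0.31 and 0.10. Dcn had -0.42 (SE 0.22), and its dimmer probe set 0.20. The dimmer probe sets of Col1a1, Col1a2 and Col3a1 lay between -0.79 and -0.16. The collagen-binding proteoglycan gene Lum had 437, 388 and 430 in Meis1cko DRGs against 1158, 913 and 1119 in control DRGs, at -1.34 ± 0.14 (log2 fold change ± SE, limma adjusted p = 0.0686). It passed with the pairs (adjusted p = 0.00717 in limma, within 0.00320 to 0.431 over the alternatives). Col3a1, Col1a2 and Col1a1, the genes of fibrillar collagens, had -0.73, -0.58 and -0.54. The summed intensity of the 6 was 7590.2 to 9616 in Meis1cko and 10569 to 17256 in control DRGs. Control replicate 1, the highest of the 6 arrays for Cartpt and Pam, was also the highest for Lum, Dcn, Col1a1, Col1a2 and Col3a1. The part of connective tissue in the differences of Cartpt and Pam was not tested.

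Over the 9 axon injury markers the median was 0.11, and 0 passed the adjusted threshold. Sox11, a transcription factor gene of neurite growth that the study chose on these arrays, had 0.67 (SE 0.16) without overlap on its brightest probe set, and its other 5 probe sets lay between -0.47 and 0.72 with overlap. The injury genes Sprr1a and Atf3 had 0.66 (SE 0.36) and 0.57 (SE 0.33), and Gap43 had -0.21 (SE 0.12). For Atf3 the intensities were 765, 427 and 289 in Meis1cko DRGs and 284, 357 and 282 in control DRGs, highest in Meis1cko replicate 1. Gal was also highest there, at 1437, but had 1413 in control replicate 1. Npy and Vip were highest in control replicate 2.

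Sympathetic neurons also make Npy, and 6 of their 7 markers were measured. Their summed intensity was 368 to 605 in Meis1cko and 424 to 542 in control DRGs, with a median log2 fold change of -0.09. Phox2a and Gata3 were under the 25th percentile on all 6 arrays. Dbh, the noradrenaline-synthesizing enzyme gene, had 224, 441 and 370 in Meis1cko DRGs and 243, 382 and 303 in control DRGs on its brightest probe set. The dimmer probe sets of Dbh lay below the array's median on 5 and 6 of the 6 arrays. Of the 7 spinal cord markers, 0 had an unadjusted p under 0.05, with a median of 0.06 and a summed intensity of 328 to 555 in Meis1cko and 432 to 557 in control DRGs. The oligodendrocyte gene Olig2 was under that percentile on all 6 as well. Aqp4, the brightest of the 7, had 245, 289 and 127 in Meis1cko DRGs and 211, 297 and 241 in control DRGs. It lay below the array's median on 0 of the 6 arrays, and Slc1a2 did so on 2.

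**Figure D4:**
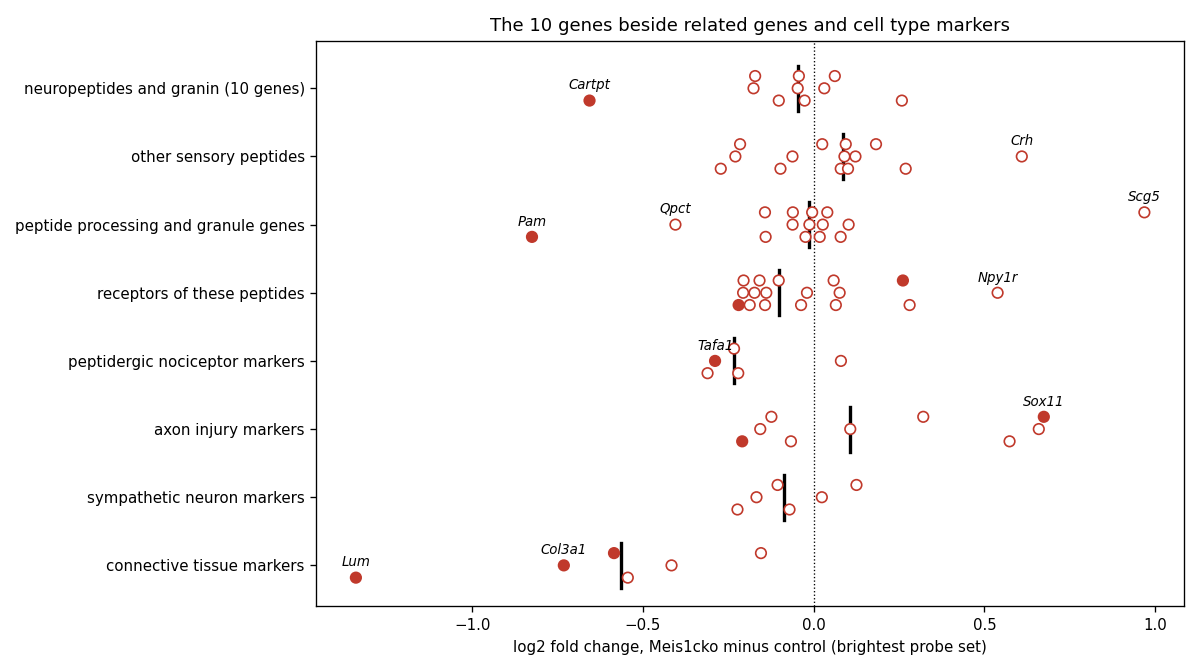
Log2 fold change (Meis1cko minus control) of the brightest probe set of each gene, in rows by gene list, with bars at the list medians and filled circles where the 3 Meis1cko and 3 control mice did not overlap. Cartpt (-0.66) and Pam (-0.82) are the lowest of their rows, Scg5 (0.97) the highest of its row, and all 6 connective tissue markers lie below 0.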

How the data were processed

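The arrays (Affymetrix mouse genome, 1 colour) were read by the authors with the GeneChip command console and analysed in GeneSpring. The authors deposited intensity values, linear and already normalized. The method of summarising probes is not given in the sources used here, and it affects dim probe sets most.

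Values were taken to log2 without an offset, with a floor of 1. The 64 control probe sets were left out. Genotypes were compared over all 45037 probe sets in R 4.3.3 with limma 3.58.1 (lmFit, eBayes, no block), with Benjamini-Hochberg adjustment and a threshold of 0.05, and the fit was tested on simulated data. Intervals are 95% intervals from the same fit. The number of arrays limits the precision.

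The labels number the arrays 1 to 3 within each genotype. Same-numbered arrays deviated from their group means together (correlations of 0.424, 0.535 and 0.766), and the numbers were taken as pairs in an alternative fit. Both replicate 3 arrays stood apart, which shifts the deviations of replicates 1 and 2 the same way in both genotypes. Arrays of different numbers were not compared, so the correlations do not show that replicates 1 and 2 are pairs. Whether the mice share litters is not given in the sources used here.

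The members were fixed by name. Members, lists and tests were chosen with earlier results of these data known. Beside the members, up to 4 genes with the smallest p of each list are named, with other markers where a level is described, which were chosen after their values were seen. Some genes of the lists, Calca among them, were not analysed here. The alternatives were the replicate block, a trended robust prior, quantile normalization, median centring, an offset of 16, a filter at the median, array weights, each array left out, both replicate 3 arrays left out, the methods' t-test and the mean over a gene's probe sets. Those for Pam, Scg5 and Lum were added after seeing the data.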

Additional observations from a re-analysis of the deposited data

How the results depend on the processing

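Under every alternative run, 0 members passed the adjusted threshold, Cartpt and Pam stayed lower, and the median of the members stayed below 0. The log2 fold change of Cartpt ran from -0.74 to -0.51 and its adjusted p in limma from 0.0996 (array weights) to 1.0. At an unadjusted p under 0.05, 1 member probe set passed and with array weights 2 did, those of Cartpt and Adcyap1. The methods' t-test gave Cartpt an adjusted p of 1.0. The replicate block left the count of members at 0.

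Over all probe sets, 7 passed the adjusted threshold, against 37 with the replicate block, 177 with array weights, 26 without both replicate 3 arrays, 11 with the trended prior or quantile normalization, 4 with the filter, 1 with the offset and 0 in the methods' t-test. Leaving out single arrays gave 1 (without Meis1cko replicate 1 or control replicate 1) to 15 (without Meis1cko replicate 3), with 2, 3 and 4 without control replicate 2, Meis1cko replicate 2 and control replicate 3.

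Directions that turned belong to members near 0 or of wide spread. With array weights Tac1 had -0.00082, Vip -0.067 and Penk -0.28, and without both replicate 3 arrays Penk had -0.22. Leaving out single arrays gave ranges of -0.043 to 0.11 for Tac1, -0.094 to 0.032 for Calcb, -0.38 to 0.042 for Gal, -0.17 to 0.11 for Npy, -0.068 to 0.15 for Vip, -0.21 to 0.60 for Penk and -0.18 to 0.058 for Scg2. The cause was not tested. Lum passed the adjusted threshold with the replicate block, array weights and the trended prior.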
